A study of Mus musculus with 15 samples.

Results

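The Ikaros and Runx families are 2 small groups of DNA-binding proteins that direct the development of lymphocytes. Their 9 genes examined here are the 5 Ikaros zinc-finger genes *Ikzf1*, *Ikzf2*, *Ikzf3*, *Ikzf4* and *Ikzf5*, the 3 Runx genes *Runx1*, *Runx2* and *Runx3*, and *Cbfb*, which encodes the shared partner of the Runx proteins. They were found by gene symbol, and each had exactly 1 of the 24690 entries that the deposited tables hold for 24089 gene symbols. Ikaros proteins bind DNA through zinc fingers near their start, pair with one another through zinc fingers near their end, and recruit chromatin complexes that often silence genes. Runx proteins bind DNA through the Runt domain, and CBF-β, the product of *Cbfb*, does not itself contact DNA but strengthens that binding. Members of both families act in innate lymphoid cells as well as in T and B cells.

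RNA was sequenced from group 2 innate lymphoid cells (ILC2s), which secrete type 2 cytokines, of the gut lamina propria (LP), and from bone marrow (BM) ILC2 progenitors (ILC2p). All the cells studied came from C57BL/6 Tgfbr2f/f ER-Cre+ mice, treated at 8 to 12 weeks of age, in which tamoxifen activates a Cre that deletes the floxed gene of the type 2 TGF-β receptor. The promoter of the Cre is not given in the sources used here, and no source limits the deletion to ILC2s. Mice given tamoxifen at 1 mg per day for 5 days are called Tgfbr2-/-, and mice given sunflower oil are called WT, so that the WT cells also carried the floxed alleles and the Cre. LP ILC2s (4 WT and 3 Tgfbr2-/- libraries) were sorted 1 day after the last dose as CD45+Lin-CD127+Sca-1+CD25+KLRG1+ cells. ILC2p (4 WT and 4 Tgfbr2-/- libraries) were sorted as CD45.2+Lin-CD127+α4β7+CD25+ cells from irradiated CD45.1 recipients, 6 weeks after these had received a mixture of CD45.1 marrow with WT or Tgfbr2-/- marrow. The treatment with tamoxifen or oil was given to the donors before the transfer. The labels number 2 experiments within each cell type, and the sample titles carry a different prefix for each experiment of each cell type. Each experiment had 2 libraries of each genotype except the Tgfbr2-/- ILC2s of experiment 2, which have 1. The cell types differed in tissue, sorting gate, chimerism and title prefix at once, and these cannot be told apart. The labels do not say whether replicates came from separate animals, so p-values measure only the spread between these libraries. In bulk RNA, fewer cells of a type and less RNA per cell also cannot be told apart.

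Counts summed over all genes were 12997489 to 22350339 for WT ILC2s, 12167066 to 32114265 for Tgfbr2-/- ILC2s, 12276824 to 35961215 for WT ILC2p and 10957021 to 31993992 for Tgfbr2-/- ILC2p. Levels of 1 gene across libraries are given below as CPM (counts relative to the total of the library, on the TMM scale). Levels of different members are compared only as RPKM, which accounts for transcript length. The most abundant marker of a list was taken by CPM, which does not account for length. Values of 4 libraries are given in the order experiment 1 replicates 1 and 2, then experiment 2 replicates 1 and 2, and those of the 3 Tgfbr2-/- ILC2 libraries in the same order. A gene was called when edgeR's quasi-likelihood test gave a Benjamini-Hochberg adjusted p under 0.1 and a fold change over 1.5.

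*Tgfbr2*, the deleted gene, stood at 172, 261, 149 and 207 CPM in WT ILC2s and at 206, 184 and 96.3 CPM in Tgfbr2-/- ILC2s. In ILC2p it stood at 0.712, 232, 107 and 188 CPM for WT and 87.2, 129.8, 30.8 and 218 CPM for Tgfbr2-/- libraries. The genotypes overlapped in both cell types, and the log2 fold changes were -0.46 (SE 0.24, adjusted p = 0.898, edgeR quasi-likelihood, Benjamini-Hochberg adjusted) in ILC2s and -0.21 (SE 1.20, adjusted p = 0.989, same test) in ILC2p. Reads were counted over the full transcript, and the deleted exons are not given in the sources used here. This level therefore does not check the genotypes, and every direction below rests on the labels. The reason for the overlap was not tested.

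ILC2 markers were present in all 4 groups but lower in Tgfbr2-/- ILC2p, and the ILC2p libraries also stood apart in other ways. *Gata3* was the most abundant of 12 ILC2 markers in all 4 groups, and the summed level of that list was 8556 to 10320 CPM in WT ILC2s, 7170 to 9901 CPM in Tgfbr2-/- ILC2s, 6525 to 9153 CPM in WT ILC2p and 2885 to 4147 CPM in Tgfbr2-/- ILC2p. Between the genotypes of ILC2p, 2 of 11 ILC2 markers tested were called lower and 0 higher, beside 0.866% and 2.61% of all genes tested. *Il1rl1*, which encodes the IL-33 receptor ST2, had a log2 fold change of -1.96 (SE 0.22, adjusted p = 0.00156, edgeR quasi-likelihood, Benjamini-Hochberg adjusted). *Gata3* had -1.41 (SE 0.31, adjusted p = 0.0603 by the same test). The paper reports lower *Il1rl1* but unchanged *Gata3* in Tgfbr2-/- ILC2p, from fewer libraries. The 7 neutrophil and monocyte markers found in the tables summed to 55010 to 64660 CPM in Tgfbr2-/- ILC2p, against 735.5 to 1514 CPM in WT ILC2p and at most 129 CPM in any ILC2 library. None of these 7 markers was at 0 in any ILC2p library, and the most abundant in Tgfbr2-/- ILC2p was *S100a8*, which encodes a calcium-binding protein abundant in neutrophils and monocytes. Basophil and mast cell markers also differed, with sums of 1208 to 1581 CPM in Tgfbr2-/- ILC2p and 110.7 to 297 CPM in WT ILC2p. The antibodies that the methods name for the exclusion of lineage-positive cells include those against CD11b and Gr-1, carried by neutrophils and monocytes. *Itgam*, which encodes CD11b, stood at 1.16, 0.232, 2.03 and 1.16 CPM in WT ILC2p. In Tgfbr2-/- ILC2p it stood at 192, 332, 429 and 381 CPM. The part of these cells in the values of the Ikaros and Runx genes was not tested.

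Transcripts were also missing more often from single ILC2p libraries. Among genes at 50 CPM or more in the other libraries of the same cell type, the share under 1 CPM was at most 0.0285% in each ILC2 library. In WT ILC2p it was 14.1%, 3.66%, 1.75% and 1.56%, and in Tgfbr2-/- ILC2p 12.1%, 13.8%, 1.81% and 8.36%. The share was highest in replicate 1 of WT experiment 1, in both Tgfbr2-/- libraries of experiment 1 and in replicate 2 of Tgfbr2-/- experiment 2. For the 9 genes this meant that 10 of 72 ILC2p values rested on 3 counts or fewer, in *Ikzf2*, *Ikzf4*, *Ikzf5*, *Runx2* and *Cbfb*, against 0 of 63 values in ILC2s. Of all 8045 genes whose median in ILC2s was 10 CPM or more, 42.7% had such an ILC2p library and 0.783% such an ILC2 library, which is the background for the 5 of 9 genes.

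**Figure D1:**
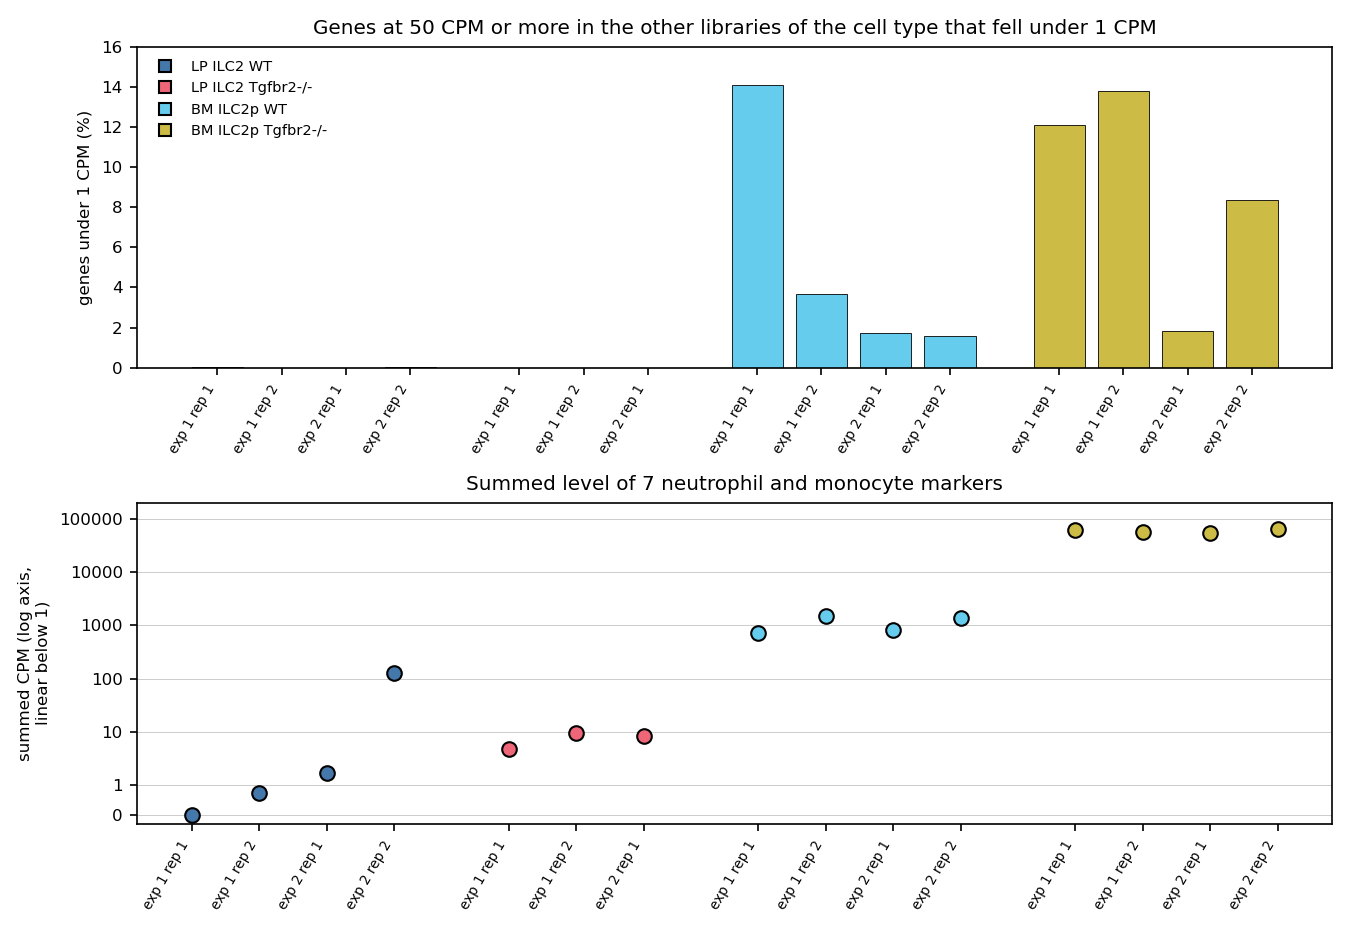
Above, percent of the genes at 50 CPM or more in the other libraries of the cell type that were under 1 CPM in each library. Below, summed CPM of 7 neutrophil and monocyte markers in each library on a log axis that is linear below 1, where the 4 Tgfbr2-/- ILC2p libraries lie between 55010 and 64660.

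Whether reads can be assigned among such related genes depends on how much sequence they share, so a matching stretch of 60 coding bases is shown for the 3 Runx genes and for 4 of the 5 Ikaros genes. *Ikzf5* was not aligned and is not shown. For the Runx genes it lies in the part coding for the Runt domain (mm9 coordinates of the NCBIM37 reference with GENCODE annotation), at chr16:92695750-92695809 on the minus strand in *Runx1* (exon 3 of 8), chr17:44872203-44872262 on the minus strand in *Runx2* (exon 3 of 9) and chr4:134708891-134708950 on the plus strand in *Runx3* (exon 2 of 6). Capitals mark the bases that differ from *Runx1*, 6 in *Runx2* and 3 in *Runx3*.
Runx1: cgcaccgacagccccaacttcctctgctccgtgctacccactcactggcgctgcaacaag
Runx2: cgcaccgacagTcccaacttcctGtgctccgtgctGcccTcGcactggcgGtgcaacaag
Runx3: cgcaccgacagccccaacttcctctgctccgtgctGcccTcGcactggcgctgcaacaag

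For the Ikaros genes the stretch lies in the part coding for the zinc fingers near the end of the protein, through which family members pair. It is at chr11:11669456-11669515 on the plus strand in *Ikzf1* (exon 9 of 9), chr1:69585405-69585464 on the minus strand in *Ikzf2* (exon 8 of 8), chr11:98328369-98328428 on the minus strand in *Ikzf3* (exon 8 of 8) and chr10:128071167-128071226 on the minus strand in *Ikzf4* (exon 8 of 9). Capitals mark the bases that differ from *Ikzf1*, 12 in *Ikzf2*, 6 in *Ikzf3* and 8 in *Ikzf4*.
Ikzf1: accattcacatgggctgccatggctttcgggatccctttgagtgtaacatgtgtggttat
Ikzf2: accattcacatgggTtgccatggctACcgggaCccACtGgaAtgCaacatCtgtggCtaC
Ikzf3: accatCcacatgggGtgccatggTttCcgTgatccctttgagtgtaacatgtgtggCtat
Ikzf4: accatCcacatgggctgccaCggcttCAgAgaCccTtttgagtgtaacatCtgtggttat

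The longest run of identical coding bases was 38 between *Runx1* and *Runx3*, 26 between *Runx2* and either of them, and 11 to 26 between pairs of Ikaros genes. No run of 50 bases was shared between any 2 of the 9 genes. Runs of 50 bases that other genes also hold made up 1.33% of those in *Runx3*, 0.537% in *Ikzf4* and 0.0682% in *Runx2*, and none in the other members. The genes lie apart, with *Ikzf1* (chr11:11585006-11672929) and *Ikzf3* (chr11:98326216-98407345) on the same chromosome and *Ikzf2* at chr1:69577788-69732534, *Ikzf4* at chr10:128067899-128083047, *Ikzf5* at chr7:138532166-138554035, *Runx1* at chr16:92601712-92826311, *Runx2* at chr17:44632936-44951746, *Runx3* at chr4:134676567-134733905 and *Cbfb* at chr8:107694574-107741886. The strand setting of the counting is not given in the sources used here, so reads of antisense transcripts cannot be told apart from those of the genes.

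Within the Ikaros family, *Ikzf3* led in the gut and *Ikzf1* in Tgfbr2-/- ILC2p from the marrow. *Ikzf3*, which encodes Aiolos, a partner of Ikaros best known from B cells, had the highest RPKM of the 5 genes in all 7 ILC2 libraries, with a median of 118 (range 94.7 to 186). *Ikzf1*, which encodes Ikaros, the founding member, followed with a median of 45.5 RPKM (36.3 to 80.0) in ILC2s. In ILC2p the order of the medians was the reverse, 80.7 RPKM for *Ikzf1* (18.0 to 115) and 46.5 RPKM for *Ikzf3* (3.47 to 102.5), and *Ikzf1* led in 4 of 4 Tgfbr2-/- and 2 of 4 WT libraries. In replicate 1 of Tgfbr2-/- ILC2p experiment 1 the lead was narrow, 73.95 RPKM for *Ikzf1* against 72.2 RPKM for *Ikzf3*. As a share of the summed RPKM of the family, *Ikzf3* had a median of 55.9% in WT ILC2s, 70.8% in Tgfbr2-/- ILC2s, 41.7% in WT ILC2p and 15.8% in Tgfbr2-/- ILC2p, where its range was widest (3.07 to 49.4%). These shares are a description, with no test, and the part of neutrophils and monocytes in them was not tested.

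**Figure D2:**
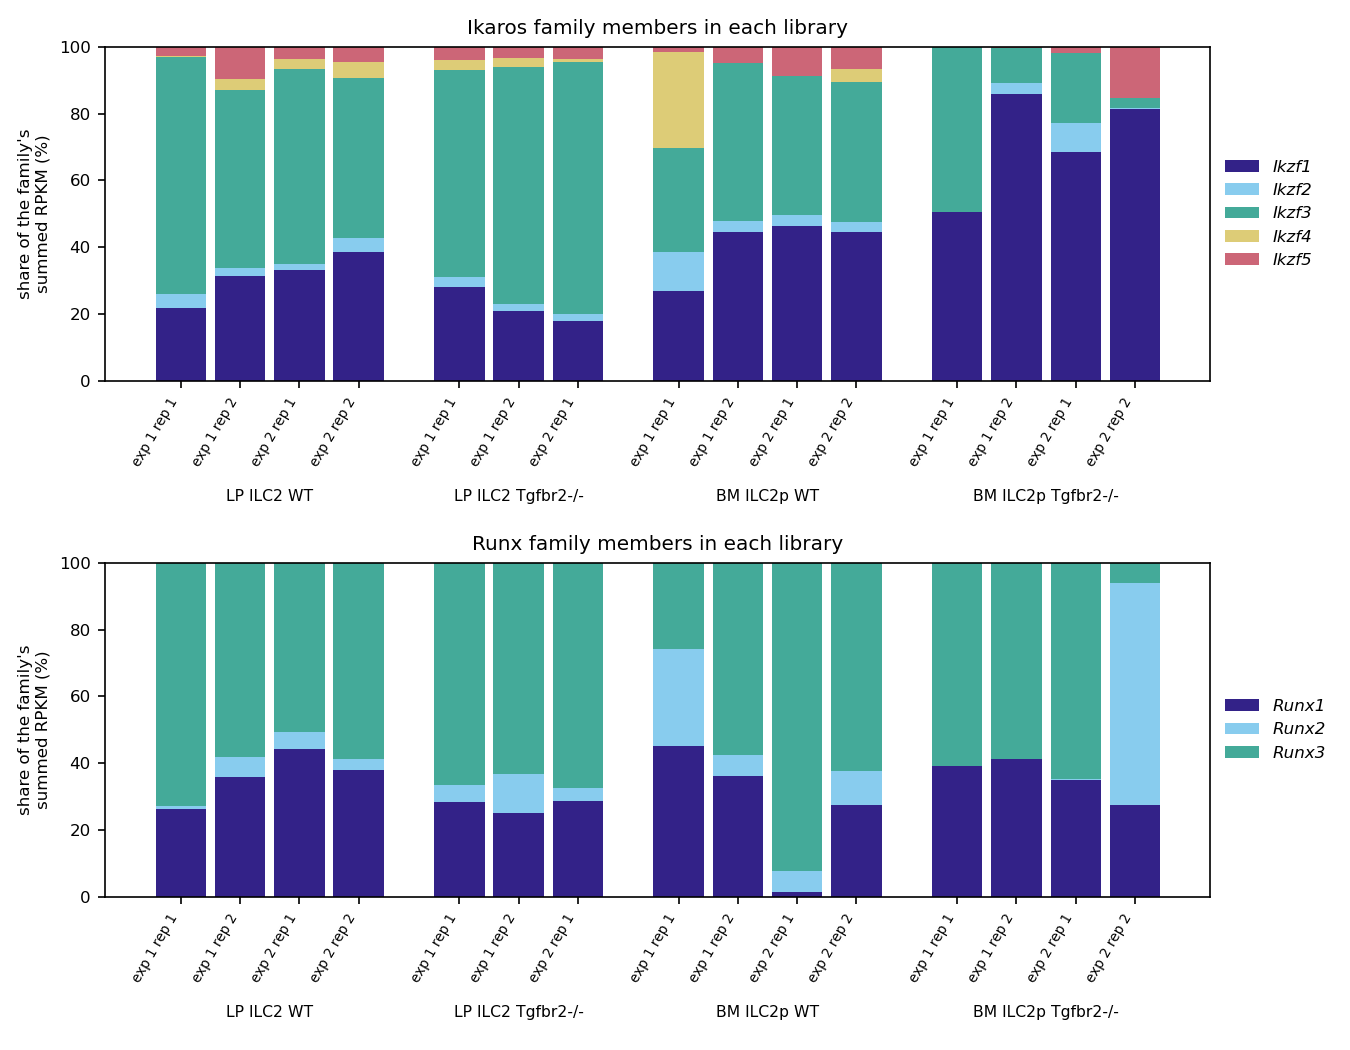
Share of each member in the summed RPKM of its family (vertical, percent), with 1 bar per library, for the Ikaros genes above and the Runx genes below. *Ikzf3* and *Runx3* have the largest shares in all 7 ILC2 libraries, and in the 4 Tgfbr2-/- ILC2p libraries *Ikzf1* has the largest share of the Ikaros sum.

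The other Ikaros genes had lower medians, with exceptions in single ILC2p libraries. *Ikzf5*, which encodes Pegasus, the most divergent member, had a median of 8.50 RPKM in ILC2s and 5.51 RPKM in ILC2p. *Ikzf2*, which encodes Helios, known from regulatory T cells, had medians of 4.60 and 6.47 RPKM. *Ikzf4*, which encodes Eos, a co-repressor partner in regulatory T cells, had medians of 4.84 RPKM in ILC2s, 4.29 RPKM in WT ILC2p and 0.0201 RPKM in Tgfbr2-/- ILC2p. In replicate 1 of WT ILC2p experiment 1 *Ikzf4* was at 19.1 RPKM, above *Ikzf1* at 18.0 RPKM, and in replicate 2 of Tgfbr2-/- ILC2p experiment 2 *Ikzf5* was at 17.3 RPKM, above *Ikzf3* at 3.47 RPKM.

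In each library *Ikzf1* stood at 179.8, 272, 339.9 and 336 CPM in WT ILC2s and at 205, 176 and 186 CPM in Tgfbr2-/- ILC2s. In ILC2p it stood at 101, 389, 525 and 387 CPM for WT and 404, 153, 340.1 and 573 CPM for Tgfbr2-/- libraries. The genotypes overlapped in both cell types, and in ILC2s only replicate 1 of WT experiment 1 reached down into the Tgfbr2-/- range. *Ikzf3* stood at 487, 371, 500.4 and 347 CPM in WT ILC2s and at 366, 496 and 651 CPM in Tgfbr2-/- ILC2s. In WT ILC2p it stood at 88.6, 319, 375 and 295 CPM, and in Tgfbr2-/- ILC2p at 324, 15.1, 80.4 and 16.9 CPM. Replicate 1 of WT experiment 1 was the low WT progenitor library, and replicate 1 of Tgfbr2-/- experiment 1 the high one of its genotype, and the genotypes overlapped in both cell types.

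*Ikzf2* stood at 66.2, 36.4, 37.2 and 67.2 CPM in WT ILC2s and at 38.4, 36.3 and 41.0 CPM in Tgfbr2-/- ILC2s. In WT ILC2p it was 77.1, 54.3, 67.7 and 46.0 CPM, and in Tgfbr2-/- ILC2p 0.297, 10.1, 75.2 and 1.39 CPM. Of the Tgfbr2-/- progenitor libraries 3 lay under all WT ones, and replicate 1 of experiment 2 lay within the WT range. *Ikzf4* had 45, 412, 374 and 420 counts in WT ILC2s and 478, 539 and 120 counts in Tgfbr2-/- ILC2s (2.10 to 29.3 CPM over the 7). In WT ILC2p it had 795, 2, 0 and 1023 counts and in Tgfbr2-/- ILC2p 0, 1, 1 and 6 counts. Both genotypes of ILC2p thus had libraries at 3 counts or fewer, 2 of 4 in WT and 3 of 4 in Tgfbr2-/- cells, while all 7 ILC2 libraries were above. *Ikzf5* stood at 19.1, 72.0, 33.5 and 35.0 CPM in WT ILC2s and at 24.0, 25.6 and 31.9 CPM in Tgfbr2-/- ILC2s. In WT ILC2p it was 4.99, 33.7, 85.4 and 49.7 CPM, and in Tgfbr2-/- ILC2p 0.0990, 0.310, 7.64 and 90.0 CPM, so that the highest and the lowest of the 15 values were both in Tgfbr2-/- ILC2p.

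**Figure D3:**
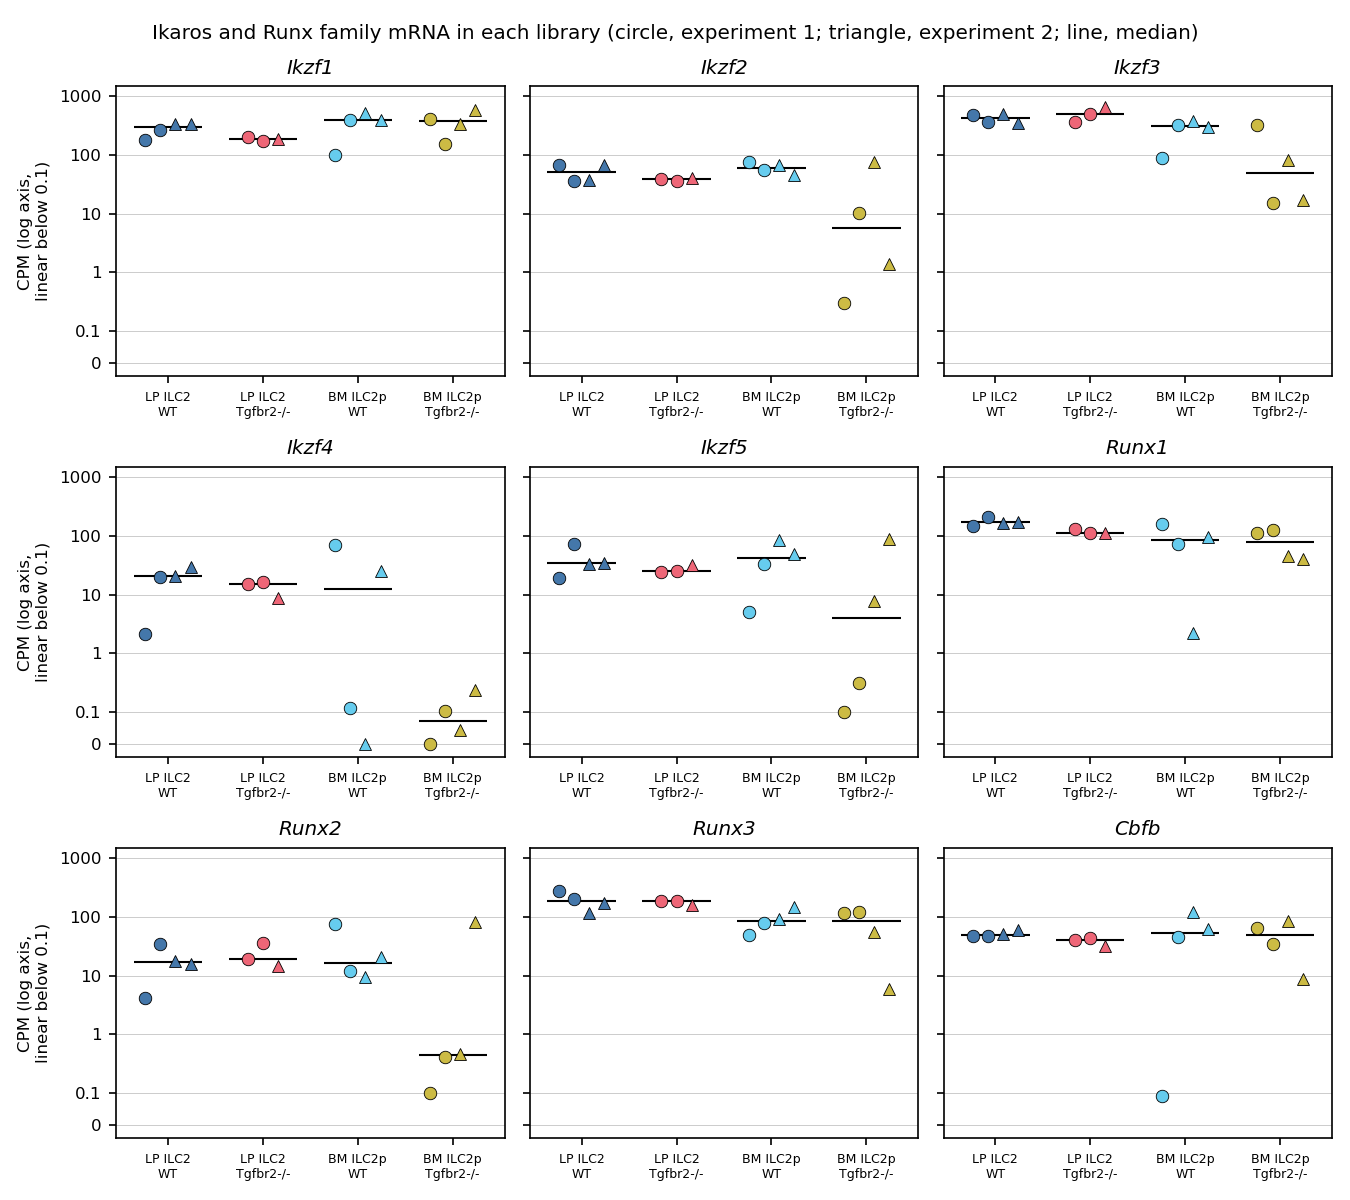
Level of each member in CPM on a log axis that is linear below 0.1 (vertical), by group (horizontal), with 1 symbol per library, circles for experiment 1, triangles for experiment 2 and a line at the median. All ILC2 libraries lie at 2.10 CPM or more for every member, while ILC2p libraries of *Ikzf2*, *Ikzf4*, *Ikzf5*, *Runx2* and *Cbfb* reach below 1 CPM.

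Within the Runx family *Runx3*, known from cytotoxic T cells and from group 1 and 3 innate lymphoid cells, led in all 7 ILC2 libraries, with a median of 53.0 RPKM (34.5 to 69.6). *Runx1*, required for blood stem cells and expressed through most of lymphoid development, followed with a median of 25.0 RPKM (20.2 to 34.3). *Runx2*, the regulator of bone formation, was lowest, with a median of 3.41 RPKM (0.796 to 9.25). In ILC2p the medians kept this order, at 25.5 RPKM for *Runx3*, 16.4 RPKM for *Runx1* and 2.25 RPKM for *Runx2*, but single libraries departed from it. *Runx1* led in 1 of 4 WT ILC2p libraries and *Runx2* in 1 of 4 Tgfbr2-/- ILC2p libraries, where it made up 66.5% of the summed RPKM of the 3 genes, against at most 11.5% in any ILC2 library.

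*Runx1* stood at 145, 208, 166 and 176 CPM in WT ILC2s and at 129, 112 and 113 CPM in Tgfbr2-/- ILC2s. In ILC2p it stood at 159, 74.2, 2.17 and 97.3 CPM for WT and 111, 125, 45.9 and 40.6 CPM for Tgfbr2-/- libraries. All 3 Tgfbr2-/- ILC2 libraries lay below all 4 WT ones, with no overlap. When the 4 groups of each gene were ordered by their medians, this pair of neighbours did not overlap and those of the other 8 genes did, beside 18.0% of 8045 genes with at least 1 such pair. *Runx3* stood at 272, 201, 116 and 176 CPM in WT ILC2s and at 190.5, 189 and 160.4 CPM in Tgfbr2-/- ILC2s. In ILC2p it stood at 49.5, 79.1, 92.1 and 148 CPM for WT and 116, 120.4, 55.8 and 5.87 CPM for Tgfbr2-/- libraries. Every ILC2p library lay below every ILC2 library but 1, replicate 1 of WT experiment 2, and the genotypes overlapped in both cell types. *Runx2* stood at 4.15, 34.2, 18.0 and 15.8 CPM in WT ILC2s and at 19.3, 36.2 and 14.7 CPM in Tgfbr2-/- ILC2s. In WT ILC2p it was 76.8, 11.9, 9.26 and 20.7 CPM, and in Tgfbr2-/- ILC2p 0.0990, 0.414, 0.467 and 82.1 CPM. In the last group 3 libraries had 1, 4 and 11 counts and replicate 2 of experiment 2 had 2126.

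*Cbfb* stood at 47.4, 46.4, 51.6 and 59.9 CPM in WT ILC2s and at 40.3, 42.9 and 31.6 CPM in Tgfbr2-/- ILC2s. In ILC2p it stood at 0.0890, 44.8, 119.6 and 61.5 CPM for WT and 63.6, 35.0, 86.7 and 8.85 CPM for Tgfbr2-/- libraries. All 3 Tgfbr2-/- ILC2 libraries lay below all 4 WT ones, while the ILC2p genotypes overlapped, and the lowest ILC2p value, in replicate 1 of WT experiment 1, was a single count. In ILC2s the RPKM of *Cbfb* was below the summed RPKM of the 3 Runx genes in all 7 libraries, with a ratio of 0.174 to 0.305 (median 0.190). In ILC2p the ratio ranged from 0.000649 to 1.61 (median 0.394), and *Cbfb* was above the Runx sum in 2 of 8 libraries. That sum itself was 67.9 to 95.4 RPKM in ILC2s and 21.4 to 75.4 RPKM in ILC2p. RNA levels do not give the amounts of the proteins that pair.

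The first comparison asks whether these genes changed in gut ILC2s when the TGF-β receptor was lost. None of the 9 was called in Tgfbr2-/- against WT ILC2s, with edgeR's quasi-likelihood test giving Benjamini-Hochberg adjusted p-values of 0.898 to 0.986. None of the 11981 genes tested was called either (0%), although 557 (4.65%) had an unadjusted p under 0.05 and DESeq2 called 338 genes, no member among them. Of the members 7 of 9 had a negative log2 fold change, with a median of -0.45 beside -0.01 over all genes tested. *Runx1* had the most negative value, -0.60 (SE 0.19, unadjusted p = 0.0133, adjusted p = 0.898 by the same test over all genes), from 174 ± 26.2 CPM (SD, n = 4) in WT to 118 ± 9.71 CPM (SD, n = 3) in Tgfbr2-/- ILC2s. *Ikzf1* had -0.51 (SE 0.21, unadjusted p = 0.0392 by the same test over all genes), from 282 ± 75.0 to 189 ± 14.8 CPM (SD). *Cbfb* had -0.45 (SE 0.29), from 51.4 ± 6.13 to 38.3 ± 5.90 CPM (SD). For *Runx1* and *Cbfb* the genotypes did not overlap, with all Tgfbr2-/- libraries lower, as for 2.35% of the genes tested, while 3.04% were higher without overlap. *Ikzf3* had 0.23 (SE 0.23) and *Runx2* 0.24 (SE 0.73), the only positive values. Within experiments the value of *Runx1* was -0.57 in experiment 1 and -0.57 in experiment 2, that of *Ikzf1* -0.26 and -0.83, and that of *Cbfb* -0.19 and -0.78. The summed level of NK cell and ILC1 markers was 292.5 to 942 CPM in Tgfbr2-/- and 217 to 391 CPM in WT ILC2s, with *Gzma* the most abundant, and their part in these values was not tested.

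In ILC2p the same question could be asked of 8 members, since *Ikzf4* was too low in most libraries to be tested. None was called in Tgfbr2-/- against WT ILC2p (edgeR's quasi-likelihood test, Benjamini-Hochberg adjusted p = 0.796 to 0.998), where 3.47% of 9242 genes were, 2.61% higher and 0.866% lower. No member had groups that did not overlap, beside 6.29% of genes that were higher without overlap and 3.83% that were lower. The log2 fold changes had a median of -1.05 beside -0.10 over all genes, and standard errors of 0.49 to 4.15. The most negative was *Ikzf5* at -3.42 (SE 2.25), from 43.4 ± 33.5 to 24.5 ± 43.8 CPM (SD, n = 4 each). *Runx2* had -2.91 (SE 4.15), *Ikzf2* -2.12 (SE 1.73) and *Ikzf3* -1.55 (SE 1.08). These fitted values depended on single libraries, and leaving out 1 library gave -4.97 to -1.96 for *Ikzf5*, -6.35 to -0.20 for *Runx2*, -4.27 to -1.33 for *Ikzf2* and -3.16 to -0.93 for *Ikzf3*. The pooled counts after scaling gave a ratio of Tgfbr2-/- to WT of 0.669 for *Ikzf5*, a smaller difference than the fit, and of 1.45 for *Runx2*, in the opposite direction. The values differed between experiments, with *Ikzf5* at -6.52 in experiment 1 and -0.58 in experiment 2, and *Ikzf3* at -0.32 and -2.83. *Ikzf1* had 0.06 (SE 0.49). *Cbfb* had 0.09 (SE 1.57), but its pooled counts gave a ratio of 0.654, in the opposite direction, and its log2 fold change ranged from -0.97 to 1.08 over the settings. For *Ikzf4* the pooled counts were 1820 in WT, almost all in 2 libraries, and 8 in Tgfbr2-/- ILC2p.

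**Figure D4:**
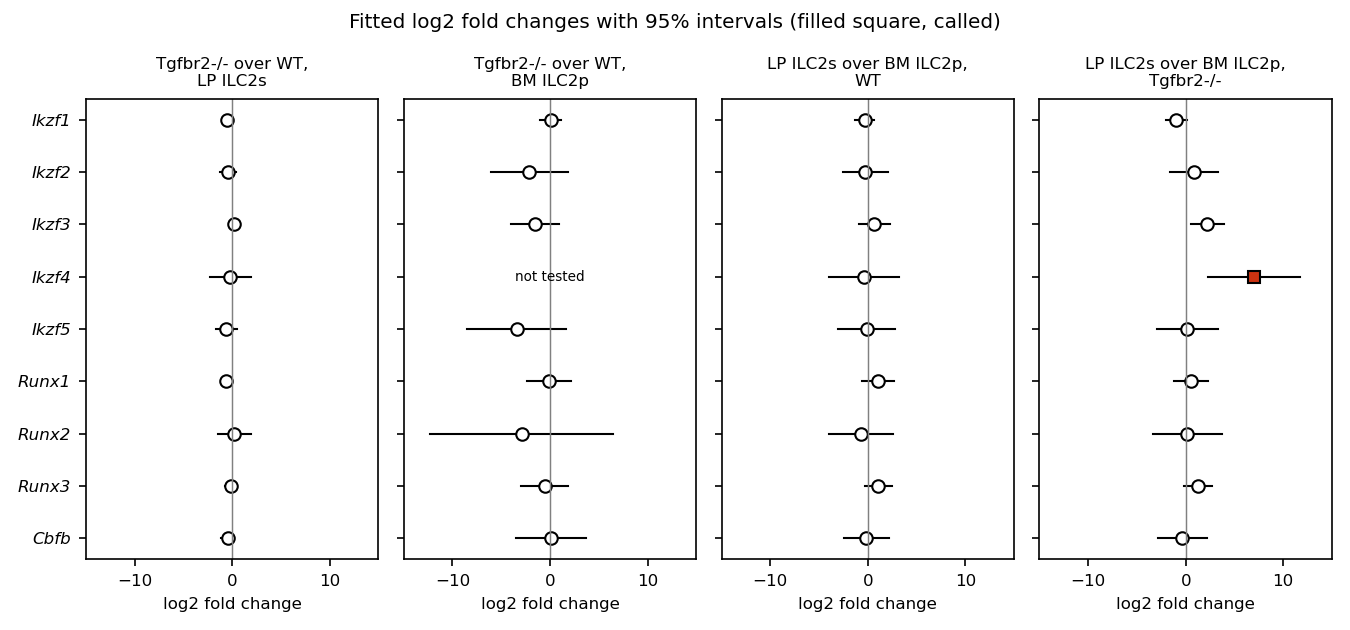
Fitted log2 fold change of each member (horizontal) with its 95% interval, from the t distribution on the degrees of freedom of the test, in 4 comparisons, Tgfbr2-/- over WT in ILC2s and in ILC2p and ILC2s over ILC2p in WT and in Tgfbr2-/- cells, where open circles were not called and the filled square was. The called value is *Ikzf4* at 7.02, and intervals are narrowest within ILC2s.

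The next comparison asks how gut ILC2s differ from marrow ILC2p of the same genotype. No title prefix is shared between ILC2 and ILC2p libraries, so the cell type and any difference between those sets cannot be told apart, and the same libraries entered the comparisons of genotypes above. Between WT ILC2s and WT ILC2p none of the 9 members was called (edgeR's quasi-likelihood test, Benjamini-Hochberg adjusted p = 0.641 to 0.997), where 2.36% of 12806 genes were, 1.65% higher and 0.711% lower in ILC2s. No member had groups that did not overlap, beside 7.05% of genes that were higher in ILC2s without overlap and 3.76% that were lower. *Runx1* had a log2 fold change of 1.07 (SE 0.76) and *Runx3* of 1.05 (SE 0.65), from 92.1 ± 41.1 CPM in ILC2p to 191 ± 64.6 CPM in ILC2s (SD, n = 4 each). *Ikzf3* had 0.66 (SE 0.73), and the other 6 members were between -0.72 and -0.12.

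Between Tgfbr2-/- ILC2s and Tgfbr2-/- ILC2p, 1 of 9 members was called, where 8.21% of 12806 genes were called higher and 3.44% lower, 11.7% in all. It was *Ikzf4*, which was too low to be tested within ILC2p and passed the filter on low counts here through the ILC2 libraries, where it is high, so that its call is no independent support, and with no filter 0 members were called. *Ikzf4* had a log2 fold change of 7.02 (SE 2.24, adjusted p = 0.0734, edgeR quasi-likelihood, Benjamini-Hochberg adjusted), from 0.0944 ± 0.101 CPM (SD, n = 4) to 13.5 ± 4.23 CPM (SD, n = 3). The pooled counts of 1137 and 8 gave a ratio of 127 after scaling (interval 64.2 to 295, 95%, covering counting error only). Leaving out 1 library gave log2 fold changes of 6.67 to 7.98. The call was lost, with adjusted p-values of 0.109 to 0.142 in that test, when any of the 3 Tgfbr2-/- ILC2 libraries, either Tgfbr2-/- ILC2p library of experiment 1 or replicate 1 of experiment 2 was left out. It was lost as well with limma on log2(RPKM + 1), where the log2 fold change was 2.31, and the gene could not be tested with at least 10 counts in every library. In both of these settings *Ikzf3* was the 1 member called. Over all settings the adjusted p of *Ikzf4* reached 0.461. In WT cells, the comparison with its own controls, the pooled *Ikzf4* counts of 1251 in ILC2s and 1820 in ILC2p gave a ratio of 0.972 (interval 0.904 to 1.04), and the groups overlapped.

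*Ikzf3* was not called in Tgfbr2-/- cells, with a log2 fold change of 2.21 (SE 0.80, adjusted p = 0.110, edgeR quasi-likelihood, Benjamini-Hochberg adjusted), from 109 ± 147 CPM in ILC2p (SD, n = 4) to 504 ± 143 CPM in ILC2s (SD, n = 3). It passed without replicate 1 of WT ILC2p experiment 1 (2.21) and without replicate 1 of Tgfbr2-/- ILC2p experiment 1, its highest progenitor library of that genotype (3.75, adjusted p = 0.00528 in the same test). *Runx3* had 1.28 (SE 0.69), from 74.4 ± 54.3 to 180 ± 17.0 CPM (SD). For *Ikzf3*, *Ikzf4* and *Runx3* the groups did not overlap, with all ILC2 libraries higher, as for 18.1% of the genes tested, while 7.18% were lower without overlap. *Ikzf1* had the most negative value, -0.96 (SE 0.50), and the remaining 5 members were between -0.34 and 0.82. Among these, leaving out 1 library gave 0.41 to 3.29 for *Ikzf2*, -0.27 to 3.32 for *Ikzf5* and -0.29 to 6.12 for *Runx2*. *Ikzf2* was called without replicate 1 of Tgfbr2-/- ILC2p experiment 2, and *Runx2* without replicate 2 of that experiment. The members' median was 0.55 beside -0.04 over all genes. The neutrophil and monocyte markers, far higher in Tgfbr2-/- ILC2p, had 3 to 5 of 7 at 0 in each Tgfbr2-/- ILC2 library, and their part in the values of the members was not tested.

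Whether the loss of the receptor acted differently in the 2 cell types was tested as an interaction. None of the 9 members was called (edgeR quasi-likelihood, Benjamini-Hochberg adjusted), where 0.992% of 12806 genes were, 0.469% with a positive and 0.523% with a negative difference. The difference of the genotype effects, ILC2s minus ILC2p, was 7.49 on the log2 scale for *Ikzf4* (SE 3.07, adjusted p = 0.329 by the same test over all genes), but this gene was too low to be tested between the genotypes of ILC2p and passed the filter here through ILC2s, so the value is given only as a description. For *Ikzf3* it was 1.78 (SE 1.19, adjusted p = 0.657 by the same edgeR test). Leaving out 1 library gave 1.17 to 3.41. *Ikzf3* was called only without replicate 1 of Tgfbr2-/- ILC2p experiment 1 (adjusted p = 0.087 in the same edgeR test). The members' median was 1.69 beside 0.31 over all genes.

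Levels were also compared between the experiments of each cell type. No member was called between experiments 2 and 1 in ILC2s, where 0.977% of genes were (0.284% higher in experiment 2), or in ILC2p, where 0% were (288 of 9242 genes had an unadjusted p under 0.05 and DESeq2 called 397, *Ikzf5* among them with an adjusted p of 0.0452). The 117 genes called in ILC2s became 0 to 10 when any 1 of the 7 libraries was left out. Epithelial markers also differed between the ILC2 experiments, with 4 of 6 called higher in experiment 2 and sums of 226 to 816 CPM against 6.72 to 43.6 CPM in experiment 1. None of 5 ILC3 markers was called, but their sums did not overlap either, at 21.3 to 137 CPM in experiment 2 and 222 to 504 CPM in experiment 1. The methods give washes of the gut tissue to remove epithelial cells, and the sort took CD45+ cells. The part of epithelial cells and ILC3s in the members' values was not tested. In ILC2s the lowest unadjusted p was that of *Runx3*, with a log2 change of -0.54 in experiment 2 (SE 0.23, unadjusted p = 0.0464, adjusted p = 0.363, edgeR quasi-likelihood, Benjamini-Hochberg adjusted). In ILC2p the largest change was that of *Ikzf5*, 4.66 (SE 2.24, adjusted p = 0.999 by the same edgeR test).

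The spread of the members between libraries was measured as the SD of log2(CPM + 1). It ranged from 0.283 to 1.09 over the 9 genes in ILC2s (median 0.396) and from 0.872 to 2.58 in ILC2p (median 2.23). It was larger in ILC2p for 9 of 9 members, as for 95.1% of 8045 genes. In ILC2s 6 of 9 members lay above the median SD of genes of like level, and in ILC2p 7 of 9 did. The SD of *Ikzf4*, 2.49 against a median of 1.97, was above that of 83.5% of such genes, that of *Ikzf3*, 1.88 against 0.907, above 75.0% and that of *Ikzf1*, 0.872 against 0.670, above 67.6%, while *Runx1* (49.2%) and *Runx3* (41.9%) lay below the median. In ILC2s *Cbfb* was the steadiest member, with 0.283 against 0.509 for genes of like level, and *Ikzf4* the most variable, with 1.09 against 0.802.

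Ikaros proteins recruit the NuRD, Sin3 and CtBP co-repressors, and none of the 17 subunits listed was called in any of these comparisons, where 0%, 3.47%, 2.36% and 11.7% of all genes tested were called, with median log2 fold changes of -0.16 for Tgfbr2-/- against WT ILC2s, -0.15 for the same in ILC2p, -0.20 for ILC2s against ILC2p in WT and -0.46 in Tgfbr2-/- cells. None of the 5 genes of the cereblon ubiquitin ligase, the complex through which thalidomide analogues degrade Ikaros and Aiolos, was called either, and so few genes allow no reading against those shares. Of the Runx co-factors 2 of 16 tested were called, both between Tgfbr2-/- ILC2s and ILC2p, where 11.7% of all genes tested were called, so that this share is near the background. *Tle4*, a Groucho-type co-repressor, was higher in ILC2s (4.06, SE 1.17, adjusted p = 0.0514, edgeR quasi-likelihood, Benjamini-Hochberg adjusted). *Cbfa2t3*, a co-repressor of the ETO family known from myeloid and erythroid progenitors, was lower, with 20 pooled counts in ILC2s against 3268 in ILC2p, a ratio of 0.00547 after scaling. It stood at 59.7, 45.7, 23.7 and 64.3 CPM in Tgfbr2-/- ILC2p but at 1.51 CPM or less in every WT ILC2p and every ILC2 library. The neutrophil and monocyte markers were also highest in Tgfbr2-/- ILC2p, and their part in this value was not tested.

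Among 19 genes described as Runx targets in lymphocytes, 1 of the 13 tested was called between the genotypes of ILC2p (3.47% of all genes tested) and none of 18 in ILC2s (0%). It was *Spi1*, which encodes the myeloid regulator PU.1, with 3.83, 2.73, 4.51 and 1.33 CPM for WT against 469, 711, 638 and 812 CPM for Tgfbr2-/- ILC2p, 7.69 higher on the log2 scale (SE 0.57, adjusted p = 0.000124, edgeR quasi-likelihood, Benjamini-Hochberg adjusted). The groups were far apart, and the neutrophil and monocyte markers above moved the same way. Between WT ILC2s and ILC2p 3 of 18 were called (2.36% of all genes tested). The growth factor gene *Csf2* was 3.53 higher in ILC2s (SE 0.78, adjusted p = 0.0365 in the same edgeR test), *Tbx21*, which encodes T-bet, had 1173 pooled counts in ILC2s against 1 in ILC2p (ratio 1660, interval 297 to 65600) but stood at 2.01 and 42.4 CPM in the ILC2 libraries of experiment 1 and at 13.9 and 0 CPM in those of experiment 2, and the chemokine gene *Ccl5* was 2.71 lower, a log2 fold change of -2.71 (SE 0.60, adjusted p = 0.0388 in the same edgeR test). In Tgfbr2-/- cells 6 of 18 were higher and 1 lower in ILC2s (8.21% and 3.44% of all genes tested). Those with the largest changes were *Tbx21* (4592 against 1 pooled counts, ratio 4100, interval 736 to 162000), *Cd4* (2214 against 3, ratio 659, interval 225 to 3200), *Ifng* (2822 against 9, ratio 280, interval 147 to 613) and, lower in ILC2s, *Spi1* (102 against 47646, ratio 0.00191). These intervals cover counting error only. *Tbx21*, *Cd4* and *Ifng* were too low to be tested within ILC2p and passed the filter here through ILC2s, where they are high. Their calls, and that of *Tbx21* in WT, are thus no independent support. The counts of higher calls in this list therefore allow no reading against the shares of all genes tested. *Cd4* is itself among the 8 T cell markers and *Tbx21* among the 6 NK cell and ILC1 markers. In Tgfbr2-/- ILC2s against ILC2p 2 of 6 T cell, 2 of 5 NK cell and ILC1 and 3 of 5 ILC3 markers tested were called higher, and the summed NK cell and ILC1 markers were at 217 to 942 CPM in all ILC2s, 0.445 to 37.3 CPM in WT ILC2p and 94.3 to 427 CPM in Tgfbr2-/- ILC2p. The T cell markers summed to 70.6 to 215 CPM in ILC2s and 14.5 to 110.3 CPM in ILC2p, and the ILC3 markers to 21.3 to 504 CPM and 0.207 to 108 CPM. The lineage antibodies named in the methods include those against CD3 and CD5, carried by T cells. The part of these cells in the values of *Tbx21*, *Cd4* and *Ifng* was not tested.

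Of 12 genes described as Ikaros targets in lymphocytes 6 were high enough to be tested between the cell types, of which 2 were called higher in ILC2s in WT (1.65% of all genes tested) and 3 in Tgfbr2-/- cells (8.21%), and none lower. *Hes1*, a Notch target, stood at 1152 to 2014 CPM in ILC2s, at 41.1 to 144 CPM in WT ILC2p and at 6.24 to 29.8 CPM in Tgfbr2-/- ILC2p, and was higher in ILC2s in WT (4.12, SE 0.49, adjusted p = 0.000189) and in Tgfbr2-/- cells (6.57, SE 0.56, adjusted p = 3.4e-06, both edgeR quasi-likelihood, Benjamini-Hochberg adjusted). *Dtx1*, another Notch-linked gene, had 0 counts in all 8 ILC2p libraries and 166 to 476 CPM in ILC2s, at least 9340-fold higher in WT and at least 6140-fold higher in Tgfbr2-/- ILC2s by the lower limit of the 95% counting interval of the pooled ratio. *Il2*, which encodes interleukin-2, had 0 counts in all Tgfbr2-/- ILC2p libraries and was at least 438-fold higher in Tgfbr2-/- ILC2s on the same basis. *Dtx1* and *Il2* passed the filter on low counts through the ILC2 libraries, where they are high, so their calls are no independent support. The counts of calls in this list therefore allow no reading against the shares of all genes tested. None of the 3 that could be tested between the genotypes of ILC2p was called, nor any of 6 in ILC2s. Neutrophil and monocyte markers called lower in ILC2s were 5 of 7 in WT and 6 of 7 in Tgfbr2-/- cells. Basophil and mast cell markers called lower were 3 of 4 and 4 of 4, and epithelial markers called higher 0 of 6 and 2 of 6. The part of such cells in the values of *Hes1*, *Dtx1* and *Il2* was not tested. Both target lists were gathered from general knowledge of other lymphocytes, and no binding was measured in ILC2s or ILC2p.

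For each member with enough reads, the 2 genes whose pattern over the libraries was most like its own were found. They were picked as the highest of all genes compared, so high values follow from the choice. Over the 15 libraries, with log2(CPM + 1) centred within each cell type, the genes most alike among 6452 compared were *Nt5c3b* (Pearson r = 0.910) and *Abl1* (0.907) for *Ikzf1*, *Klc1* (0.980) and *Adh5* (0.976) for *Ikzf2*, *Psmg1* (0.924) and *Ttc5* (0.924) for *Ikzf3*, and *Xrcc1* (0.954) and *Lysmd3* (0.953) for *Ikzf5*. For the Runx genes they were *Cnot7* (0.922) and *Ranbp2* (0.891) with *Runx1*, *Slx1b* (0.953) and *Ap2b1* (0.941) with *Runx2*, and *Srebf2* (0.966) and *Fbxw5* (0.936) with *Runx3*, and for *Cbfb* they were *Ssrp1* (0.952) and *Tsn* (0.946). The values are a description over libraries that share depth and the missing transcripts above. Within ILC2s alone (7 libraries) the likeness was much lower for several, such as 0.089 for *Runx1* with *Cnot7* and -0.162 for *Ikzf3* with *Ttc5*, while *Runx3* with *Srebf2* kept 0.862. *Ikzf4* was too low to be included. Between members the highest values were 0.656 for *Ikzf5* with *Runx2* and 0.614 for *Cbfb* with *Ikzf1*, and the lowest -0.622 for *Cbfb* with *Runx2*.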

How the data were processed

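RNA-seq of 15 libraries was analysed. The authors mapped reads to mm9 with TopHat, keeping up to 15 hits (the submitters' processing notes also name Bowtie2), and deposited raw counts of reads per RefSeq gene over full transcripts, made with rpkmforgenes, which left out regions where genes of other names overlap. Beside them the authors deposited RPKM, normalised to the read number in each file's header. No column of fold changes or p-values was used.

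Genotype, cell type, experiment and replicate came from the labels. Counts were analysed with edgeR 4.0.16 in R 4.3.3 (TMM, filterByExpr, quasi-likelihood test, Benjamini-Hochberg over all genes tested), with the experiment as covariate within each cell type and in the interaction, and in 1 fit of 4 groups for ILC2s against ILC2p. The standard error is the log2 fold change divided by the square root of F. Depth was 10957021 to 35961215 counts per library, with a median of 20983448 in ILC2s and 20102800.5 in ILC2p, and intervals of pooled ratios cover counting error only. Gene positions and sequences came from NCBIM37 with GENCODE annotation. The members and the gene lists were chosen with earlier results of these data known. Named were all 9 members, *Tgfbr2* and the 2 genes most alike to each member with a median of at least 10 CPM. Of each other list, except those of cell type markers, at most 4 called genes per comparison, those with the largest changes, were named as well. *Gata3*, *Gzma* and *S100a8* were named as the most abundant markers of their lists, *Il1rl1* as a gene that the paper reports and *Itgam* as the gene of an antigen used in sorting.

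As alternatives were run limma 3.58.1 on log2(RPKM + 1) and log2(RPKM + 0.1), DESeq2 1.42.0, library size scaling, the omission of the filter, a minimum of 10 counts in each library, an adjusted p under 0.05, no fold threshold, other covariates, a replicate block, each experiment alone or left out, and each library left out. The fits were also run on simulated counts with the same spread (dispersion 0.2) for every gene. Changes of 2-fold were called for 10.5% of the changed genes within ILC2s and 11.9% within ILC2p, and changes of 8-fold for 97.4% and 100%. Missing transcripts and the comparison of Tgfbr2-/- ILC2s with ILC2p were not simulated, so these shares do not give the recovery in the real ILC2p libraries.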

Additional observations from a re-analysis of the deposited data

Results flagged for a closer look

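The 9 members and *Tgfbr2* were examined in the 3 groups of 4 libraries. In 4 of these 30 sets, 1 library lay far from the other 3 of its group, with a gap to the nearest of them that, as a part of the group's whole range, was above Dixon's 95% critical value. Chance flags about 1 in 20 groups for normally distributed values, but of 8045 genes 6.07% met this in WT ILC2s, 11.9% in WT ILC2p and 21.2% in Tgfbr2-/- ILC2p. Of the 4 cases 1 was in WT ILC2p and 3 were in Tgfbr2-/- ILC2p. *Runx2* stood at 76.76 CPM in replicate 1 of WT experiment 1 (gap 0.830 of the range) and at 82.12 CPM in replicate 2 of Tgfbr2-/- experiment 2 (gap 0.996). *Ikzf5* stood at 90.03 CPM in that same Tgfbr2-/- library (gap 0.916). *Ikzf2* stood at 75.16 CPM in replicate 1 of Tgfbr2-/- experiment 2 (gap 0.869), the Tgfbr2-/- ILC2p library with the smallest share of missing transcripts (1.81%). The part of missing transcripts in these values was not tested.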

How the results depend on the processing

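Between the genotypes of ILC2s or of ILC2p no member was called under any alternative run. Between Tgfbr2-/- ILC2s and ILC2p, where 1 member was called, the number called was 0 at an adjusted p under 0.05, 0 with no filter on low counts, 1 with limma on log2(RPKM + 1) and 1 with at least 10 counts in every library (*Ikzf3* in place of *Ikzf4*), 2 with limma on log2(RPKM + 0.1), 2 with library size scaling, 0 without experiment 1 of ILC2s, 0 without experiment 2 of ILC2s, 3 without experiment 1 of ILC2p (*Ikzf3* and *Runx3* higher and *Ikzf1* lower in ILC2s, without *Ikzf4*), 3 without experiment 2 of ILC2p (*Ikzf4*, *Ikzf5* and *Runx2*, all higher), and 0 to 2 when 1 library was left out. *Ikzf4* was called in 16 of 28 settings and *Ikzf3* in 7 of 29. DESeq2 called 1 member in the interaction (*Ikzf4*) and 1 between the ILC2p experiments (*Ikzf5*), and leaving out 1 library gave 0 to 1 in the interaction (*Ikzf3*). The cause was not tested.

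The sign of uncalled log2 fold changes reversed in places, never with an adjusted p under 0.1. For Tgfbr2-/- against WT ILC2s the reversed values were *Ikzf3* -0.02 and *Ikzf4* 0.54 in experiment 1 alone, *Runx2* -0.16 and *Runx3* 0.17 in experiment 2 alone, *Ikzf4* 0.19 and 0.00 with limma (offset 0.1 and 1) and *Ikzf4* 0.30 with the replicate block. For ILC2p they were *Runx1* 0.01 and *Runx3* 0.85 in experiment 1 alone, *Ikzf1* -0.08, *Cbfb* -0.97 and *Runx2* 1.35 in experiment 2 alone, *Ikzf1* -0.11 with at least 10 counts, *Ikzf1* -0.21 and *Cbfb* -0.14 with library size scaling, *Ikzf1* -0.10 and *Runx1* 0.57 with limma (offset 0.1), *Ikzf1* -0.10 and *Runx1* 0.28 (offset 1), *Cbfb* -0.24 without a covariate, and *Cbfb* -0.07 and *Runx1* 0.56 with the replicate block. For WT ILC2s against ILC2p they were *Runx2* 0.27 and *Ikzf4* 0.56 without experiment 1 of ILC2p, *Ikzf1* 0.21, *Ikzf5* 1.06 and *Cbfb* 1.21 without experiment 2 of ILC2p, *Ikzf5* 0.03 without experiment 2 of ILC2s, *Cbfb* 0.10 with the experiment within cell type, and with limma *Ikzf5* 0.23, *Cbfb* 1.40 and *Ikzf4* 1.72 (offset 0.1) or 0.11, 0.68 and 0.54 (offset 1). For Tgfbr2-/- cells they were *Runx2* -0.52 without experiment 1 of ILC2s, *Ikzf2* -0.06, *Runx2* -0.92 and *Ikzf5* -0.95 without experiment 1 of ILC2p, *Runx1* -0.10 without experiment 2 of ILC2p, and *Cbfb* 0.28 and 0.21 with limma (offset 0.1 and 1). Leaving out 1 library gave, for Tgfbr2-/- against WT ILC2s, *Ikzf3* -0.03 to 0.41, *Ikzf4* -0.92 to 0.66, *Ikzf5* -0.90 to 0.11, *Runx2* -0.25 to 1.24 and *Runx3* -0.36 to 0.02. For ILC2p it gave *Ikzf1* -0.30 to 0.47, *Runx1* -0.51 to 1.28, *Runx3* -1.12 to 0.17 and *Cbfb* -0.56 to 0.68. For WT ILC2s against ILC2p it gave *Ikzf4* -0.85 to 1.12, *Ikzf5* -0.57 to 0.44, *Runx2* -1.23 to 0.37 and *Cbfb* -0.55 to 0.53, and for Tgfbr2-/- cells *Ikzf5* -0.27 to 3.32, *Runx2* -0.29 to 6.12 and *Cbfb* -0.69 to 0.09. A lone library left in a group is assumed to vary like the others.

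Over all alternatives the number of genes called ranged from 0 to 338 (0 in the text) within ILC2s, from 38 to 1229 (321) within ILC2p, from 73 to 950 (302) and 92 to 2798 (1492) between the cell types in WT and Tgfbr2-/- cells, from 14 to 1518 (127) in the interaction, from 0 to 1347 (117) between ILC2 experiments and from 0 to 397 (0) between ILC2p experiments. The deviations of same-numbered WT and Tgfbr2-/- libraries were not correlated (r from -0.030 to -0.012). With so few libraries per genotype and experiment, this cannot show whether the numbers pair them. The replicate block called 0 members and 175 genes in ILC2p. In ILC2p the median log2 fold change of all genes moved from -0.10 to -0.31 with library size scaling and to -0.41 with limma on log2(RPKM + 1). Counts of 3 or fewer lay under some ILC2p values of *Ikzf2*, *Ikzf4*, *Ikzf5*, *Runx2* and *Cbfb*. The median depth of ILC2p and ILC2 libraries was similar (20102800.5 and 20983448 counts). The ILC2p libraries of experiment 1 with 14.1%, 12.1% and 13.8% of transcripts missing had 12276824, 11959679 and 10957021 counts. Replicate 2 of Tgfbr2-/- ILC2p experiment 2, with 8.36% missing, had 31993992 counts. The Tgfbr2-/- ILC2 library of experiment 2, with 0.0% missing, had 12167066 counts. The part of depth was not tested.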
